A study of Arabidopsis thaliana with 6 samples.

Results

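The NIN-like protein (NLP) genes of Arabidopsis thaliana, NLP1 to NLP9, were examined for peaks of NLP2 itself, as located by chromatin immunoprecipitation and sequencing (ChIP-seq). The 9 genes were taken by locus code from 27444 protein-coding genes on the 5 nuclear chromosomes. A peak was assigned to a gene when its summit, or the midpoint of an input peak, lay inside the gene or within 5000 bp of either end. All plants carried the nlp2-2 mutation (Col-0) and were complemented with pNLP2::NLP2-GFP, a fusion of NLP2 to green fluorescent protein driven by the NLP2 promoter. Chromatin came from whole seedlings, 14 days old by their label, which had grown for 10 days on 3 mM KNO3 and were then starved of nitrogen. T0 seedlings received fresh nitrogen-free medium, and T30 seedlings received 3 mM nitrate for 30 min. At each time there were 2 anti-GFP immunoprecipitated (IP) libraries and 1 input library, and none of these 6 libraries came from plants without the fusion. The labels do not say whether the line derives from 1 transformant, how much flanking DNA the construct carries, or whether separate cultures gave rise to the 2 IP libraries.

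NLP proteins are transcription factors that switch on genes of nitrate uptake and assimilation when nitrate reaches the cell. They bind DNA through an RWP-RK domain and pair with each other through a PB1 domain near the C terminus. NLP7, the best-studied member, stays in the nucleus when nitrate is present and is required for much of the early nitrate response. NLP6 is its closest relative, NLP8 acts in nitrate-promoted seed germination, and NLP8 and NLP9 form a branch of their own, while NLP1 to NLP5 form another.

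Each IP list was deposited as 1 list of peaks pooled over the IP libraries of a time, so the lists used here give no value per replicate and no replicate error, and no difference between the times was tested. The T0 list held 579 peaks with a median fold of 2.06, and the T30 list 593 with a median of 2.75. Fold here is the authors' enrichment value per peak, a ratio used only to rank peaks within 1 list. There were 87 input peaks at T0 and 22 at T30, and read depth is unknown. The lowest −log10 q kept was 16.1 in the T0 IP list and 20.4 in the T30 IP list.

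At T30, NLP1, NLP2 and NLP3 had summits of NLP2-GFP inside or within 5000 bp, and NLP4 to NLP9 had none. The 3 genes held 6 T30 peaks between them. By the same rule 5.41% of all protein-coding genes had a T30 summit, against 33.3% of the 9 NLP genes, or 2 of 8 (25.0%) with NLP2 set apart. Among protein-coding genes at least as long as the shortest NLP gene the share was 5.48%. Each of the 3 genes also had a T30 summit inside or within 1000 bp, as did 1.91% of all protein-coding genes. At T0, NLP2 alone of the 9 had a summit, which leaves 0 of 8 others, and 3.76% of all protein-coding genes had one (4.12% of those at least as long as the shortest NLP gene, and 1.35% of all within 1000 bp). The 3 genes with T30 peaks all belong to the branch of NLP1 to NLP5, in which NLP4 and NLP5 had none. With so few genes, and neighbouring genes that can share a summit, these shares describe the deposited lists only.

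**Figure D1:**
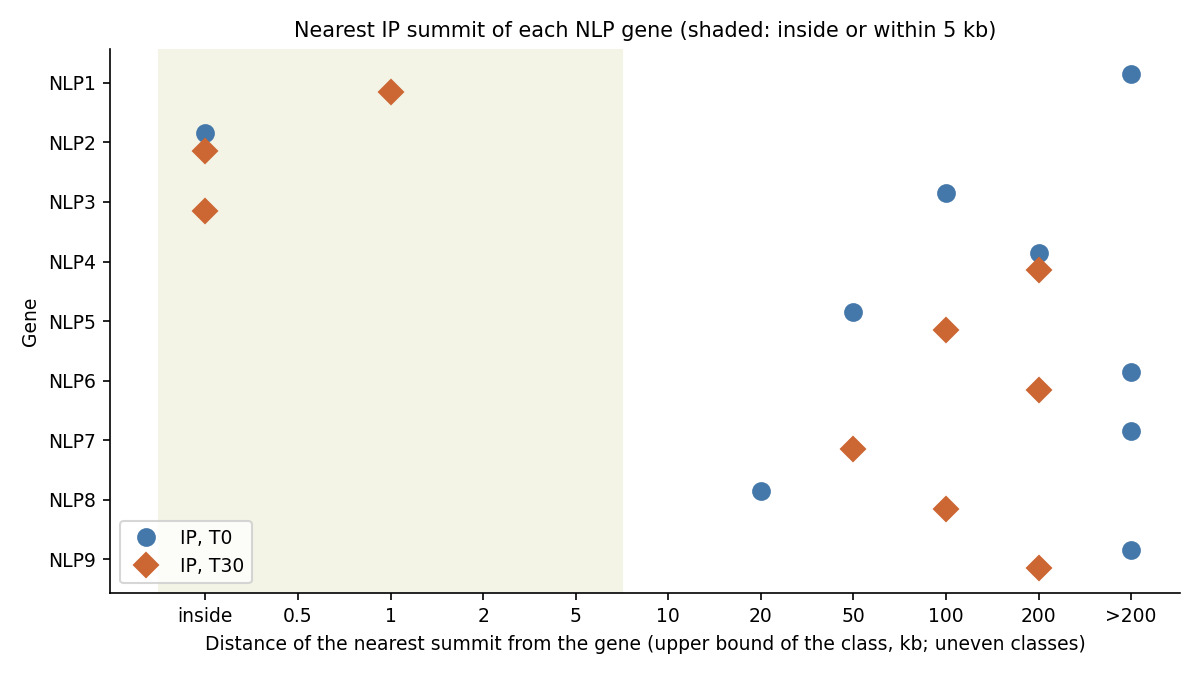
Distance class of the nearest IP summit for each NLP gene (rows), at T0 (circles) and T30 (diamonds); the x axis gives the upper bound of each class in kb, and the classes are of uneven width. Only NLP1, NLP2 and NLP3 have a symbol in the shaded area within 5 kb, and only NLP2 has one there at T0.

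NLP3 (AT4G38340) carried the highest T30 peak of the family. Its main T30 peak spanned bases 17953998 to 17954493 of chromosome 4 in TAIR10, with a fold of 7.56 and a −log10 q of 524. It ranked 18 of 593 by fold and 14 by q, so that 3.04% of the T30 peaks had a fold as high or higher. The summit, at 17954205, lay outside the gene and within 1000 bp of it, on the side of AT4G38330. NLP3 was the nearest protein-coding gene, and AT4G38330 the next, at more than 1000 bp. Within 5000 bp of a T30 peak at least as high as this one lay 0.200% of all protein-coding genes. That cut-off is the peak's own fold, set after the values were seen, so the share only restates its rank.

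A second T30 peak lay inside NLP3, from 17955410 to 17956448. Its fold was 2.40 and its −log10 q 40.2. Its summit at 17956166 was 1961 bp from the first, and the peaks were separated by 916 bp without a call. This inner peak ranked 430 of 593 by fold but 41 by width, at 1039 bp, whereas the outer peak was 496 bp wide and the median T30 peak 435 bp. NLP2 and NLP3 each had at least 2 T30 summits inside or within 5000 bp, as did 0.445% of all protein-coding genes. A T30 summit inside the gene together with another outside it within 1000 bp was found at 12 protein-coding genes (0.0437%), of which NLP3 and NLP2 were members. These patterns were set after the values were seen, so their low shares test nothing. Neither NLP3 peak overlapped a T0 peak or an input peak of either time. The same held for most of the list, since 114 of the 593 T30 peaks were shared with T0 and 32 overlapped an input peak. The nearest T0 summit was 71041 bp from the outer NLP3 summit, in a peak of fold 1.97.

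NLP1 (AT2G17150) had 1 T30 peak, on chromosome 2 from 7472269 to 7472524, with its summit at 7472344. Its fold of 2.76 stood at the middle of the list, rank 293 of 593, with a −log10 q of 46.8. It was among the narrowest peaks, at 256 bp, and 96.1% of T30 peaks were as wide or wider. The summit lay outside NLP1, within 1000 bp, but the nearest protein-coding gene was AT2G17160, within 500 bp. When every summit counted for its nearest gene only, NLP1 had none and the T30 count over the family was 2, NLP2 and NLP3, against 1.71% of all protein-coding genes. With NLP2 set apart, NLP3 alone remained. The NLP1 peak, like most peaks of the T30 list, had no T0 or input counterpart. The nearest T0 summit was 290491 bp away, with a fold of 1.98.

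**Figure D2:**
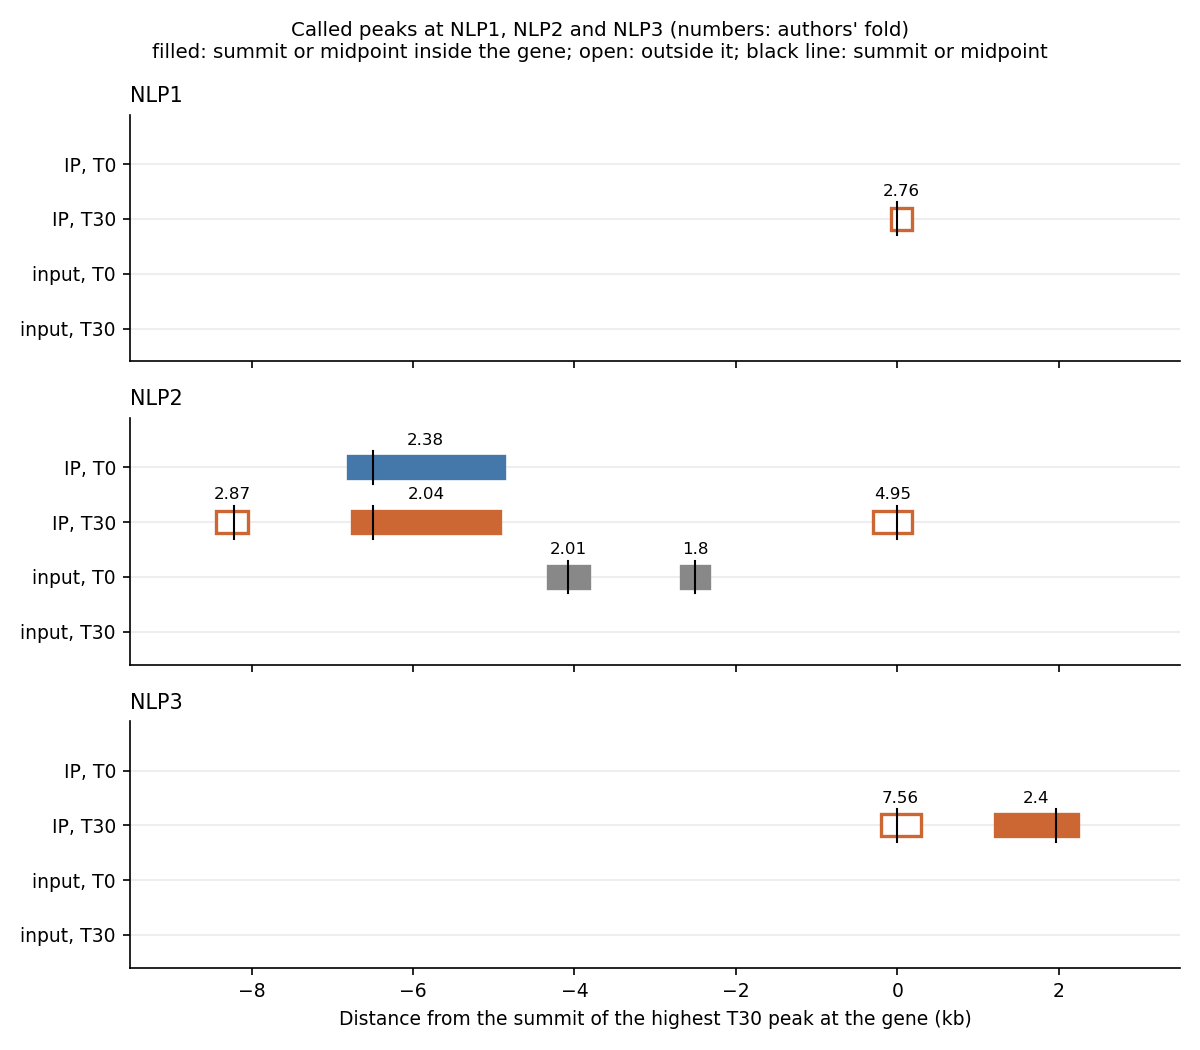
Called peaks of the 4 lists at NLP1, NLP2 and NLP3, as boxes to scale on an axis of distance in kb from the summit of the highest T30 peak at each gene, with the authors' fold above each box and a black line at the summit (IP) or midpoint (input). Filled boxes have that point inside the gene. NLP2 holds the only T0 IP box and the only input boxes, and its wide T0 and T30 boxes coincide.

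NLP2 (AT4G35270) is described apart, because the plants carry an added copy of NLP2 sequence in the construct. Reads from the construct and from the native locus map to the same positions wherever the sequence is identical, and their part in the peaks below was not tested. NLP2 had 3 T30 peaks, 1 T0 peak and 2 T0 input peaks, more than any other member. However, 1 of the 3 T30 summits lay inside the neighbouring gene IDH1, and the patterns that follow next count it. By nearest gene only, NLP2 and NLP3 had 2 T30 peaks each. At least 3 T30 summits inside or within 5000 bp were found at 11 protein-coding genes (0.0401%). T30 summits inside the gene and also within 5000 bp on both sides were found at NLP2 and 1 other gene (0.00729% of genes). These patterns, and those of summits or midpoints inside genes below, were shaped on the peaks seen at NLP2. A low share is therefore built in and tests nothing.

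The highest NLP2 peak at T30 lay outside the gene on the side of DAZ2, which encodes a zinc-finger regulator of the male germ line. It ran on chromosome 4 from 16784225 to 16784700, with its summit at 16784521. Its fold was 4.95 and its −log10 q 181. It ranked 74 of 593 by fold, and 12.5% of T30 peaks were as high or higher. The summit was more than 2000 bp from NLP2, still its nearest gene, and DAZ2 was the next, also within 5000 bp. No T0 or input peak overlapped it.

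A second T30 peak lay on the other side of NLP2, from 16776079 to 16776481, where the fold was 2.87, the −log10 q 68.6 and the rank 271. Its summit at 16776298 fell inside the neighbour IDH1, which encodes a subunit of the mitochondrial NAD-dependent isocitrate dehydrogenase, and within 1000 bp of NLP2. It had no T0 or input counterpart either. The 2 outer summits stood 8223 bp apart. Their widths, 403 and 476 bp, were close to the list's median of 435 bp.

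The third T30 peak was inside NLP2, and it was the 1 peak of the family present at both times. At T30 it ran from 16777760 to 16779602 with its summit at 16778029, and at T0 from 16777716 to 16779644 with its summit at 16778024. The summits were 5 bp apart. The T30 peak lay wholly within the T0 peak, of which it covered 95.5%. Its place in the lists differed: at T0 it had a fold of 2.38, a −log10 q of 36.7 and rank 94 of 579, and at T30 a fold of 2.04, a −log10 q of 23.1 and rank 591 of 593. The folds come from separately called lists, so the lower T30 value does not tell whether binding there changed. Both peaks were wide, at 1929 bp for T0 (rank 35 of 579) and 1843 bp for T30 (rank 7 of 593). IP summits of both times inside the same gene occurred at 25 protein-coding genes (0.0911%).

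The T0 input list, from chromatin without immunoprecipitation, also held peaks inside NLP2. One ran from 16780191 to 16780701, and its fold was 2.01 and its −log10 q 7.69, rank 70 of 87 by fold. The other, from 16781842 to 16782186, had a fold of 1.80 and a −log10 q of 4.25, rank 84 of 87, and reached past the end of the gene on the side of DAZ2. Both were weak within their list, whose median fold was 2.60. An input midpoint inside a protein-coding gene was found at 8 genes at T0 (0.0292%), and NLP2 was the 1 gene (0.00364%) with 2 of them. The nearer input peak was 546 bp from the T0 IP peak, so that neither overlapped an IP peak of either time. The names of the IP lists carry the tag noINPUT, which is not spelled out there and may stand for a filter on input peaks; 32 peaks of each IP list still overlapped an input peak of either time. No T30 input midpoint lay within 5000 bp of any NLP gene, where the share of all protein-coding genes was 0.0437%, and at T0 that share was 0.117%. The other 8 NLP genes had no input midpoint at either time.

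**Figure D3:**
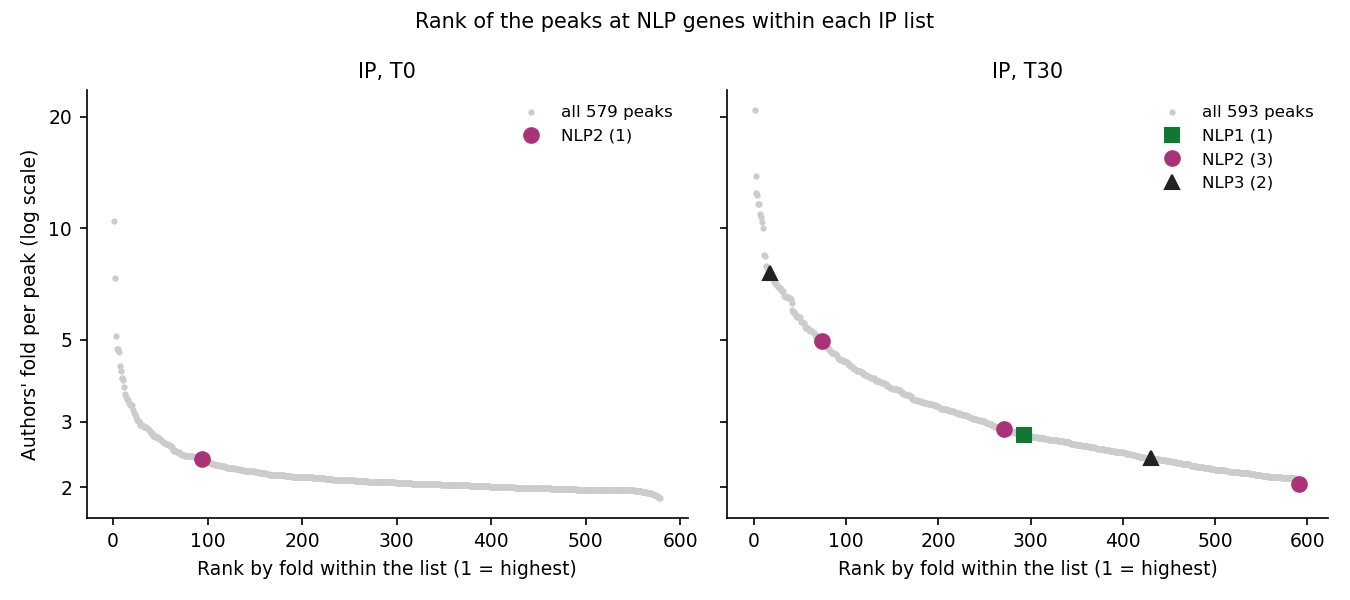
Authors' fold per peak (y axis, log scale) against its rank within the T0 list of 579 peaks and the T30 list of 593 (grey points), with the peaks at NLP1 (square), NLP2 (circles) and NLP3 (triangles) marked. The outer NLP3 peak stands at rank 18 at T30, and the inner NLP2 peak at rank 94 at T0 and rank 591 at T30.

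Within the T30 list, the 4 peaks with summits outside the NLP gene were 256 to 496 bp wide with folds of 2.76 to 7.56. The T30 peaks inside NLP2 and NLP3 were 1843 and 1039 bp wide with folds of 2.04 and 2.40, which rank 591 and 430 of 593. The T0 peak inside NLP2 was wide as well, against a T0 median of 682 bp, but its fold was above that list's median, and 16.2% of T0 peaks were as high or higher. With NLP2 set apart, only the outer peaks of NLP1 and NLP3 and the inner peak of NLP3 remain. The part of construct reads in the NLP2 peaks was not tested. Widths and folds of peaks inside other genes are not given here, so the contrast is not shown to be particular to NLP genes. These sets were drawn after the values were seen, and no test was made of them.

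**Figure D4:**
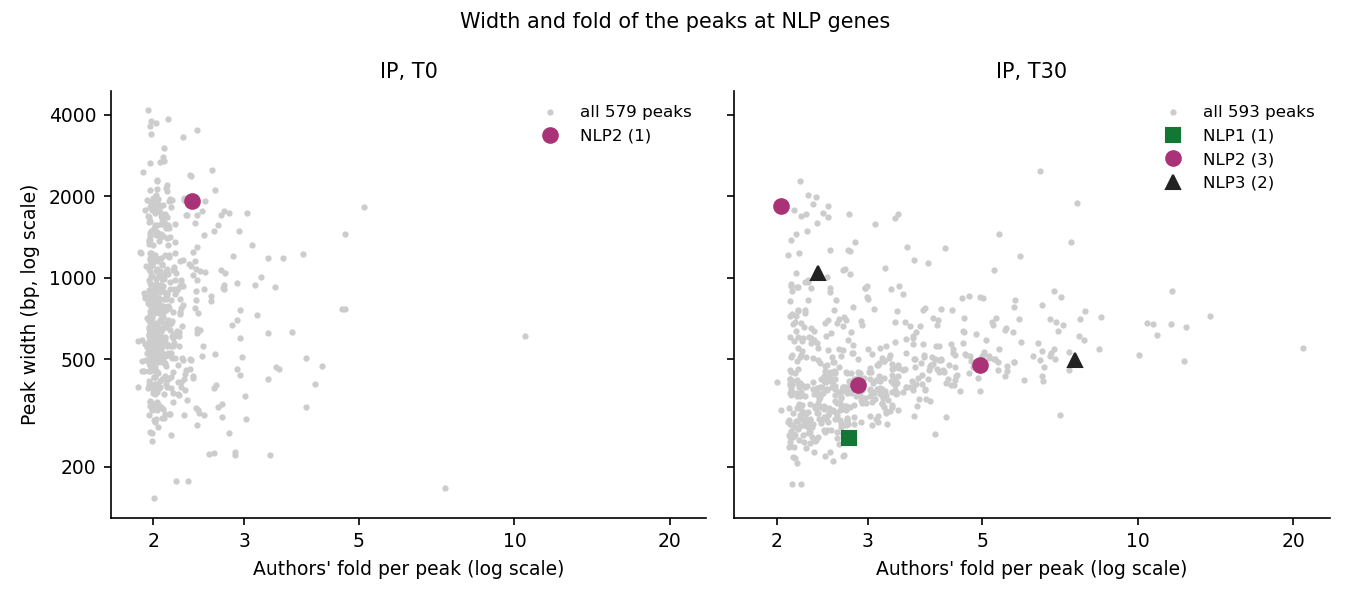
Peak width in bp against the authors' fold, both on log scales, for all T0 and T30 IP peaks (grey) with those at NLP1 (square), NLP2 (circles) and NLP3 (triangles) marked. At T30 the peaks inside NLP2 and NLP3 are 1843 and 1039 bp wide, and the outer peaks 256 to 496 bp.

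NLP1 and NLP2 stand in neighbourhoods that resemble each other. In the gene order of the annotation, NLP2 lies between IDH1 and DAZ2. NLP1 lies between IDH2, for another subunit of the same isocitrate dehydrogenase, and DAZ1, the relative of DAZ2, with 1 gene between it and IDH2 and 2 between it and DAZ1. In both neighbourhoods a T30 summit lay between the NLP gene and the DAZ gene and within 5000 bp of both, with a fold of 2.76 for NLP1 and 4.95 for NLP2. The NLP1 summit was within 1000 bp of NLP1 but nearest to AT2G17160, 1 of the 2 genes between NLP1 and DAZ1. The NLP2 summit was more than 2000 bp from NLP2, its nearest gene, with no gene between NLP2 and DAZ2. On the other side the neighbourhoods differed, since IDH1 held a T30 summit and IDH2 had none within 5000 bp at either time. This likeness was noticed after the values were seen.

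For NLP4 to NLP9 no IP summit of either time lay within 10000 bp. Most genes had none at that flank, since 6.65% of all protein-coding genes had a T0 summit and 9.4% a T30 summit. The closest was a T0 summit more than 10000 and within 20000 bp of NLP8, in a peak inside AT2G43580 (chromosome 2, bases 18078837 to 18079210). Its fold was 2.00, rank 413 of 579. Among the NLP genes and times without a summit by the 5000 bp rule, none had a nearer one. Of the summits inside that rule, the farthest was that between NLP2 and DAZ2, at more than 2000 bp. For NLP7 the nearest T30 summit was more than 20000 bp away, in a peak of fold 2.91, with 5 protein-coding genes between. The nearest T30 summits of NLP5 and NLP8 were more than 50000 bp away, with folds of 2.36 and 2.42. Those of NLP4, NLP6 and NLP9 were more than 100000 bp away, with folds of 2.41, 3.93 and 2.85. A gene without a listed peak had none that passed the authors' calling and filters, which at an unknown depth does not show that NLP2 was absent there.

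Relatives and partners of the NLP proteins were examined by the same rule. The RKD genes encode RWP-RK proteins without the long N-terminal region of NLP proteins and act mainly in egg cell and embryo development. None of the 5 (RKD1 to RKD5) had an IP summit within 5000 bp at either time. Of 15 further nitrate signalling genes, 3 had a T30 summit and 1 (6.67%) a T0 summit, against the 5.41% and 3.76% of all protein-coding genes. NRG2 (AT3G60320), a regulator that interacts with NLP7, had a T30 peak within 500 bp (chromosome 3, bases 22291115 to 22291714) that was nearer still to AT3G60310. Its fold was 3.66, rank 157 of 593. CIPK23 (AT1G30270), a kinase that phosphorylates the nitrate transporter and sensor NRT1.1, had a T30 peak of fold 2.74 within 1000 bp (chromosome 1, bases 10653951 to 10654248). NRT1.1 itself (AT1G12110) had one of fold 2.60, more than 2000 bp away (chromosome 1, bases 4100653 to 4100971). CPSF30 (AT1G30460), a messenger RNA 3′ processing factor, held the T0 peak (chromosome 1, bases 10771524 to 10772262), of fold 2.01 and rank 399 of 579. CIPK8, CBL1, CBL9, CPK10, CPK30, CPK32, TCP20, ABI2, SPL9, FIP1 and KIN10 had none. No T30 peak of these 20 genes reached the fold of the outer NLP3 peak.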

How the data were processed

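The genome build was TAIR10, and MACS2 (2.1.1), Bowtie2 (2.3.4.1) and SAMtools (1.7) are named, all per the submitters' processing notes. The fold per peak (a ratio), the −log10 q and the score are the authors' deposited values. In 100% of IP peaks the score was 10 times −log10 q without its decimals, and it was not used further. The IP lists are pooled over replicates and passed a reproducibility filter (IDR), as far as their own names say; the names also carry the tags noCM and noINPUT, which are not explained there. What the folds are relative to is not given in the sources used here.

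Positions are 1-based on TAIR10. Genes came from a RefSeq table of TAIR10.1, taken to share nuclear coordinates with TAIR10, so distances to genes are given as classes and none of its coordinates are printed. It held all 29 listed genes by locus code and no strand or sequence. The planned promoter motif and protein comparisons were not run. Peaks overlapped when they shared at least 1 bp. Counting used Python 3.11.15 with pandas 2.3.3 and was tested on simulated data.

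The text names all 9 NLP genes, genes nearest to or within 1000 bp of their peaks, and members of the RKD and signalling lists. Other neighbours in the gene order were named after the values were seen. The members and lists were chosen with earlier results of these data known. Shares of all protein-coding genes are given as background, and no test was made. Shares for several summits or midpoints at a gene, for summits of both times inside it, and for the outer NLP3 fold were set after the values were seen.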

Additional observations from a re-analysis of the deposited data

How the results depend on the processing

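The counts of NLP genes with a summit or midpoint were recomputed under flanks of 1000, 2000 and 10000 bp, any base of the peak, the nearest gene only, and the gene table moved by 250 bp either way. For the IP lists, a shared −log10 q cut-off of 20.4, peaks at or above the median fold, and peaks overlapping no input peak were added. Of 38 recomputed counts, 36 stayed within 1.5 times the reported one. Many of these could not move, or could not fall. A summit or midpoint inside a gene stays assigned at any flank, by any base and by nearest gene. NLP2 had such a point in the T0 IP, T30 IP and T0 input lists, and NLP3 in the T30 IP list. A wider flank can only raise a count. The stability of the counts under these settings is therefore largely built in. The shared cut-off kept all 593 T30 peaks, and no IP peak at an NLP gene overlapped an input peak. The T30 input count was 0 under every alternative. The T30 IP count ran from 2 to 3, and a fall from 3 to 2, at the 1.5 limit, was counted as unmoved. The counts that moved came from leaving out NLP2, which took the T0 IP count from 1 to 0 and the T0 input count from 1 to 0. The input alternative was chosen after seeing the data, as was the background over long genes. 3 motif and 3 protein alternatives were not run, since no sequence was used here. No paired analysis was possible because the lists used here pool the replicates of a time, although the series has 2 IP libraries at each; for the same reason no replicate was left out. Depth is unknown, so a missing peak is no evidence of absent binding, and input lists with 87 and 22 peaks differ for reasons not tested.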
